A study of Mus musculus with 64 samples.

Results

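Transcripts of hemoglobin and of its erythroid heme enzyme were followed in mouse brain tissue, library by library, for 5 genes. These were the alpha chain genes Hba-a1 and Hba-a2, the beta chain genes Hbb-bs and Hbb-bt, and Alas2. They are 5 of the 18432 genes in the table, taken by their Ensembl identifiers as named in GENCODE vM21. The genes were chosen by their measured levels in these same libraries, region, age and genotype differences included, so those levels, and every difference between groups drawn from them, are given as a description without a test. Counts of members past the threshold used for other genes stand beside the share of all genes, and nothing is read from them. Bulk RNA-seq had been run on the cortex (the frontal cortex, in the study's methods) and hippocampus of Cyfip2+/R87C knock-in (KI) mice, in which a single germline copy of Cyfip2 carries the R87C change, and of wild-type (WT) littermates. All mice were on the C57BL/6N background. Brains were taken at postnatal week (PWK) 1, 7, 14 and 28, with 4 libraries in each of the 16 groups of region, age and genotype, 64 libraries in all.

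Hemoglobin is a tetramer of alpha and beta chains, each holding a heme group that binds oxygen. Alas2 is the erythroid 5-aminolevulinate synthase, which carries out the first step of heme synthesis in red cell precursors, whereas its relative Alas1 serves other cells. Young red cells (reticulocytes) still carry globin mRNA and circulate through brain vessels, and globin transcripts have also been described in some neurons and glia. In bulk tissue, fewer cells of a type and less RNA per cell cannot be told apart, so the values below do not say which cells held these transcripts.

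In GRCm38, Hba-a1 (ENSMUSG00000069919) lies at chr11:32283511-32284465 and Hba-a2 (ENSMUSG00000069917) at chr11:32296489-32297298, both on the plus strand. Hbb-bs (ENSMUSG00000052305) lies at chr7:103826534-103828096 and Hbb-bt (ENSMUSG00000073940) at chr7:103812524-103813996, both on the minus strand. Alas2 (ENSMUSG00000025270) lies at chrX:150547375-150570638 on the plus strand. The chain genes of each pair are so alike that the division of reads between them is uncertain. The 2 alpha coding sequences, 429 bases each, differed at 1 base, and so did the 2 beta coding sequences of 444 bases. The stretches around these single differences, which is all the coding sequence a read has for telling the copies apart, are shown with the differing base in capitals (coding positions 351 to 410 for alpha, 385 to 444 for beta, GENCODE vM21):
Hba-a1: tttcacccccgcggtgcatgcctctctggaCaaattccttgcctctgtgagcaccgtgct
Hba-a2: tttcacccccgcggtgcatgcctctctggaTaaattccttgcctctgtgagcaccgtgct
Hbb-bs: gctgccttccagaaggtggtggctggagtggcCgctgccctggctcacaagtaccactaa
Hbb-bt: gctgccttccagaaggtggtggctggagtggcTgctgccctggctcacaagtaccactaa

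Over all annotated transcripts, 75.4% of the 31-base words of Hba-a1 also occurred in Hba-a2 and 92.6% of those of Hba-a2 in Hba-a1. For the beta pair the shares were 54.4% of Hbb-bs and 59.4% of Hbb-bt. No 31-base word was shared between an alpha gene, a beta gene and Alas2, so the sum of the 2 alpha genes, the sum of the 2 beta genes and Alas2 draw on separate reads. Summed hemoglobin below means the sum of the 4 chain genes.

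The members rose and fell together in these libraries, so the 120 bases before each RefSeq start are shown (GRCm38.p6). RefSeq starts differ from the GENCODE gene bounds given above. The Hbb-bs stretch lies wholly inside its GENCODE gene, and those of Hbb-bt, Alas2 and Hba-a2 lie partly inside theirs. All 5 genes had an entry. Capitals mark matches on either strand to 5 motifs. The first, AGATAA, and the second, written TGATAA, are forms of the site of GATA factors. The third, CACCC, is the core of the box read by erythroid Klf1 and its relatives. The others are CCAAT, a common promoter box, and the word ATATAA, which resembles a TATA box. Overlapping matches are merged into 1 run of capitals. The 2 alpha genes were identical at 247 of 247 upstream bases compared, at a shift of 3, so only Hba-a2 is printed. The 2 beta genes matched at 127 of 249 bases in an alignment without gaps.
Hba-a2, chr11:32296372-32296491, plus strand: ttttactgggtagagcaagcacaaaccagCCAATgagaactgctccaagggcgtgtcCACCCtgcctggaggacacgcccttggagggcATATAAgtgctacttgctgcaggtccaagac
Hbb-bs, chr7:103827929-103828048, minus strand: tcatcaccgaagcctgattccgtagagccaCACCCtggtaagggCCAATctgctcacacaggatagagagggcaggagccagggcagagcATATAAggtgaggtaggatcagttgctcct
Hbb-bt, chr7:103813924-103814043, minus strand: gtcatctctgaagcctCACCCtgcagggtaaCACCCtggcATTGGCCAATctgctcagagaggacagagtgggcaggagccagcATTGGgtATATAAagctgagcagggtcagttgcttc
Alas2, chrX:150547297-150547416, plus strand: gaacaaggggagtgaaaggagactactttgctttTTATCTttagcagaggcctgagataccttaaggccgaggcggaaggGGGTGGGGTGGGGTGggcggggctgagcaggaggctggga

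In the full 250 bases before the start, ATATAA occurred once in each of the 4 chain genes and was not found in Alas2, and 9.10% of 32851 such windows of all genes held it. CCAAT occurred once in Hba-a1, Hba-a2 and Hbb-bs and 3 times in Hbb-bt (33.9% of windows). CACCC occurred 2 times in each alpha gene, once in Hbb-bs and 3 times each in Hbb-bt and Alas2, but 52.0% of all windows held it. AGATAA occurred once each in Hbb-bs and Alas2 (9.99% of windows), and TGATAA once in each alpha gene (7.94%). These are matches of letters, not measured binding.

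The deposited values are normalized counts, and each library summed to between 29225576 and 32601227, so the sequencing depth before scaling is unknown. Any pair of libraries correlated at 0.989 or less on the log2 scale. The region labels held against Prox1 and Tbr1, marker genes chosen after the table was seen. Prox1, of dentate granule cells, reached at most 679 in cortex and up to 6272 in hippocampus, with no overlap. Tbr1, of deep cortical layers, ran from 3287 to 5460 in cortex and from 741 to 2127 in hippocampus. The other region markers looked at, C1ql2, Neurod2 and Rspo1, each overlapped between the regions, so they did not separate every library. Every library expressed the Y-linked genes Ddx3y (lowest 826 normalized counts) and Uty (lowest 370). Cyfip2 itself ranged from 14909 to 44053. It passed the test between KI and WT in the PWK 28 cortex (fell by 0.44 on the log2 scale, SE 0.09, adjusted p = 0.0058, limma) and in no other of the 8 groups of region and age. The R87C change alters the protein, so this level does not check the genotype labels. The p-values given for other genes measure the spread between these libraries, which may be technical, since the labels do not say that they came from separate animals.

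All 5 genes were detected in all 64 libraries. Hbb-bs was highest in normalized counts, from 1250 to 11844 with a median of 2952. Hba-a2 ran from 788 to 7784 (median 1976), Hba-a1 from 613 to 5672 (median 1402) and Hbb-bt from 172 to 2079 (median 497). Alas2 was far lower, from 43.4 to 502 with a median of 120. Per 1000 bases of transcript the medians were 4701 normalized counts for Hbb-bs, 3568 for Hba-a2, 2006 for Hba-a1, 707 for Hbb-bt and 58.7 for Alas2, with the alpha and beta splits uncertain as above. Summed hemoglobin ran from 2881 to 27245 (median 6769), which was 0.00918% to 0.0913% of all normalized counts.

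The highest and lowest libraries of summed hemoglobin stood 9.46-fold apart, yet its composition stayed narrow. The alpha chains made 44.7% to 55.2% of it (median 49.0%). Alas2 ran from 13.4 to 22.7 per 1000 hemoglobin counts, so it followed the chains over the whole range although it shares no sequence with them. Hbb-bt made 11.4% to 16.3% of the beta counts.

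**Figure D1:**
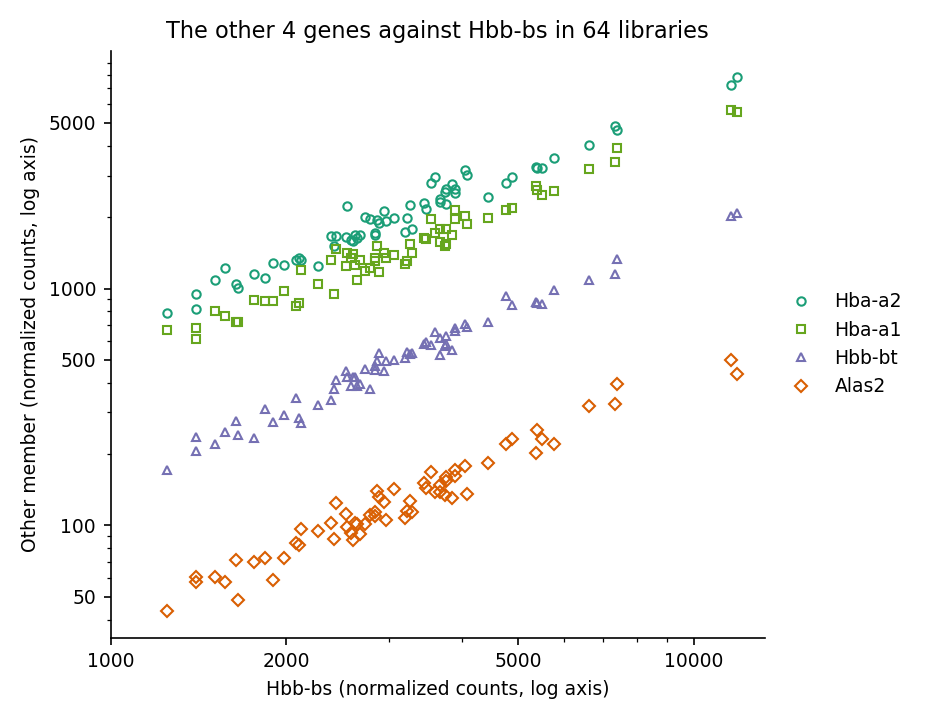
Normalized counts of Hba-a2, Hba-a1, Hbb-bt and Alas2 (vertical log axis) against Hbb-bs (horizontal log axis) in the 64 libraries, 1 symbol per library and gene. Each gene forms 1 band that climbs with Hbb-bs from 1250 to 11844, and Alas2 climbs from 43.4 to 502.

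The share of Hba-a1 within the alpha counts shifted with age. It ran from 40.4% to 45.7% at PWK 1 (median 43.6%), from 39.0% to 47.4% at PWK 7 (median 42.7%) and from 41.0% to 46.9% at PWK 14 (median 44.0%). At PWK 28 it ran from 36.8% to 41.4% (median 38.5%), so most PWK 28 libraries lay below those of the earlier ages, with some overlap. The copies differ at 1 coding base, and the annotated Hba-a1 transcript (699 bases) starts further upstream than that of Hba-a2 (554 bases), so this share rests on few distinguishing bases. The labels give no sequencing batch, and age cannot be told apart from one.

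Set beside other genes, the 5 varied widely between libraries of the same group. The pooled within-group SD was 0.39 for Hba-a2, 0.40 for Hbb-bs, 0.41 for Hba-a1, 0.45 for Hbb-bt and 0.47 for Alas2 on the log2 scale. Between 97.0% and 98.2% of the 12819 genes with a mean of at least 100 had a smaller SD, and their median was 0.12. This spread belonged to the libraries rather than to single genes. In 12 of 16 groups the same library was highest in all 4 chain genes (in 11 groups also in Alas2), and in 13 of 16 the same library was lowest in all 5 genes.

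The likeness of genes was described by Pearson's r of their deviations from the group means, on the log2(value + 1) scale over the 64 libraries. Between members it was 0.92 to 0.98. The lowest value was that of Hbb-bt with Alas2 (0.92), and Alas2 stood at 0.93 to 0.94 with the other 3 chains. Against summed hemoglobin, Alas2 had an r of 0.94 (Spearman's rho 0.90), with 0.91 in the cortex and 0.96 in the hippocampus. All points share the normalization of their library, and the chain genes are part of the sum.

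Non-members followed less closely. The highest r among the other genes, of 15738 compared with a mean of at least 20, was 0.57 for Mcur1, a gene of mitochondrial calcium uptake. Rrnad1 (0.55), Myo5c (0.54), Gm20045 (0.54), Gm48932 (0.52), Gm37132 (0.52), Gnl1 (0.51), Mansc1 (0.49), Gm26684 (0.49) and 2010300C02Rik (0.48) followed. In all, 7 non-members lay above 0.5 and 3 below -0.5, the lowest at -0.57. Bpgm, which makes the 2,3-bisphosphoglycerate that lowers the oxygen affinity of hemoglobin in red cells, was the highest listed red cell gene at 0.48.

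The rest of the red cell list followed less closely or could not be read. Of its 27 genes, 14 were not found among the 18432 genes with values, among them the defining erythroid genes Ahsp, Epb42, Klf1 and Gata1. The 11 with a mean of at least 20 had an r of -0.12 to 0.48 (median 0.18). Some of them were abundant: Sptb (mean 6106 normalized counts) and Tmcc2 (4899) exceeded Hbb-bs (3502), and Mkrn1 reached 3139. Bulk values do not say which cells held them, so this list need not report red cells. Slc4a1, the band 3 anion exchanger of the red cell membrane, had a mean of 14.3 normalized counts and an r of 0.17. The 12 other genes of heme synthesis, Alas1 included, ran from -0.27 to 0.20 (median -0.05).

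Genes of vessels, choroid plexus, meninges and leukocytes were also lower in r than the members. The r was -0.11 to 0.25 for 12 vessel genes, 0.16 to 0.30 for 7 choroid plexus genes, and -0.14 to 0.31 for 8 genes of the meninges. The choroid plexus median, 0.22, was the highest of all lists, above the 0.18 of the red cell list. Iron and heme breakdown genes (15 read) had an r of -0.17 to 0.28. Of 15 leukocyte and platelet genes only 2 had a mean of at least 20, at -0.02 and 0.01, and those below it ran from -0.06 to 0.18. The median over all genes was -0.01.

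**Figure D2:**
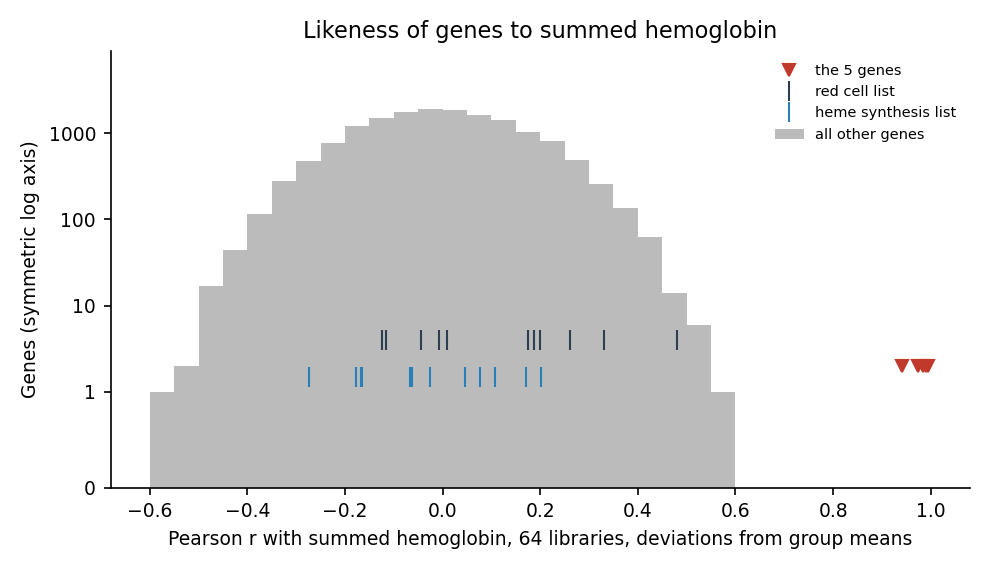
Number of genes (symmetric log axis) by Pearson's r with summed hemoglobin over 64 libraries, as deviations from group means, for all non-members (grey bars), with the 5 genes as triangles and the red cell and heme synthesis lists as ticks. The 5 genes lie at 0.94 and above, apart from all others, which end at 0.57.

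Libraries of the cortex and hippocampus that carry the same replicate number moved together in summed hemoglobin. Of 32 such pairs, 25 lay on the same side of their group means (6 of 8 at PWK 1, 7 of 8 at PWK 7, and 6 of 8 each at PWK 14 and PWK 28). The same number was highest in both regions in 4 of 8 sets of age and genotype and lowest in 6 of 8. WT replicate 3 at PWK 1, for example, was highest in both regions, with 12108 in the cortex and 26502 in the hippocampus, and WT replicate 4 was lowest in both, with 8174 and 7580. The labels do not say that a number marks 1 mouse.

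**Figure D3:**
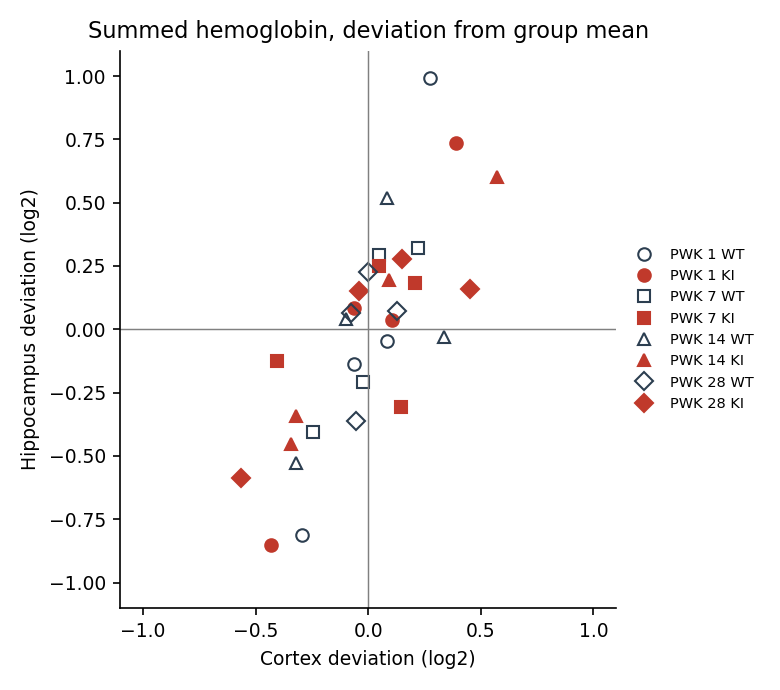
Deviation of summed hemoglobin from its group mean (log2) in the hippocampus against that in the cortex, 1 symbol for each replicate number, age and genotype (open WT, filled KI). Of the 32 points, 25 lie on the same side of both group means (lower left or upper right).

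Hemoglobin was highest in the youngest brains. In WT hippocampus at PWK 1 it summed to 12899, 12086, 26502 and 7580 (replicates 1 to 4), and at PWK 7 to 4144, 3617, 5873 and 5988. All 4 of the older libraries lay below the 4 younger ones. The difference of the mean log2 values was -1.47 (SE 0.41, n = 4 and 4), a ratio of geometric means of 0.360. All 5 genes passed the limma threshold in the lower direction, where 30.4% of all 18415 genes did, and all 5 had groups apart, where 28% did; nothing is read from these counts, since the genes were chosen with their values known. The single differences ran from -1.41 (Hba-a1, SE 0.29) to -1.53 (Hbb-bt, SE 0.33), with Alas2 at -1.49 (SE 0.33).

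The cortex fell by less. Its WT libraries summed to 10625, 9593, 12108 and 8174 at PWK 1 and to 6717, 5758, 7061 and 7955 at PWK 7, again with no overlap. The log2 difference was -0.55 (SE 0.15), from 10125 ± 1660 to 6873 ± 908 (SD, n = 4). All 5 genes passed the threshold in the lower direction (background 32.3%), and 3 of them, Hbb-bs, Hba-a2 and Hbb-bt, had groups apart (background 30%). Alas2 differed by -0.75 (SE 0.18), with 149 to 254 normalized counts at PWK 1 and 102 to 151 at PWK 7.

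Between PWK 7 and PWK 28 the WT level climbed. WT cortex at PWK 28 held 8508, 9649, 8379 and 8833, all above the 4 PWK 7 libraries, a log2 difference of 0.37 (SE 0.11). The single differences ran from 0.24 (Alas2, SE 0.18) to 0.53 (Hba-a2, SE 0.13). Past the threshold was Hba-a2 (background 9.82% higher), and Hba-a2 and Hbb-bs were apart (background 12.1%). WT hippocampus held 6614, 8921, 8868 and 9936, a log2 difference of 0.83 (SE 0.22) from PWK 7, with no overlap. Here the single differences ran from 0.71 (Hbb-bs, SE 0.30) to 1.03 (Hba-a2, SE 0.28). Past the threshold was again Hba-a2 (background 7.54% higher), and Hba-a2 and Hba-a1 were apart (background 9.46%). Nothing is read from these counts, since the genes were chosen with their values known. Both age steps of a region share the PWK 7 libraries.

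**Figure D4:**
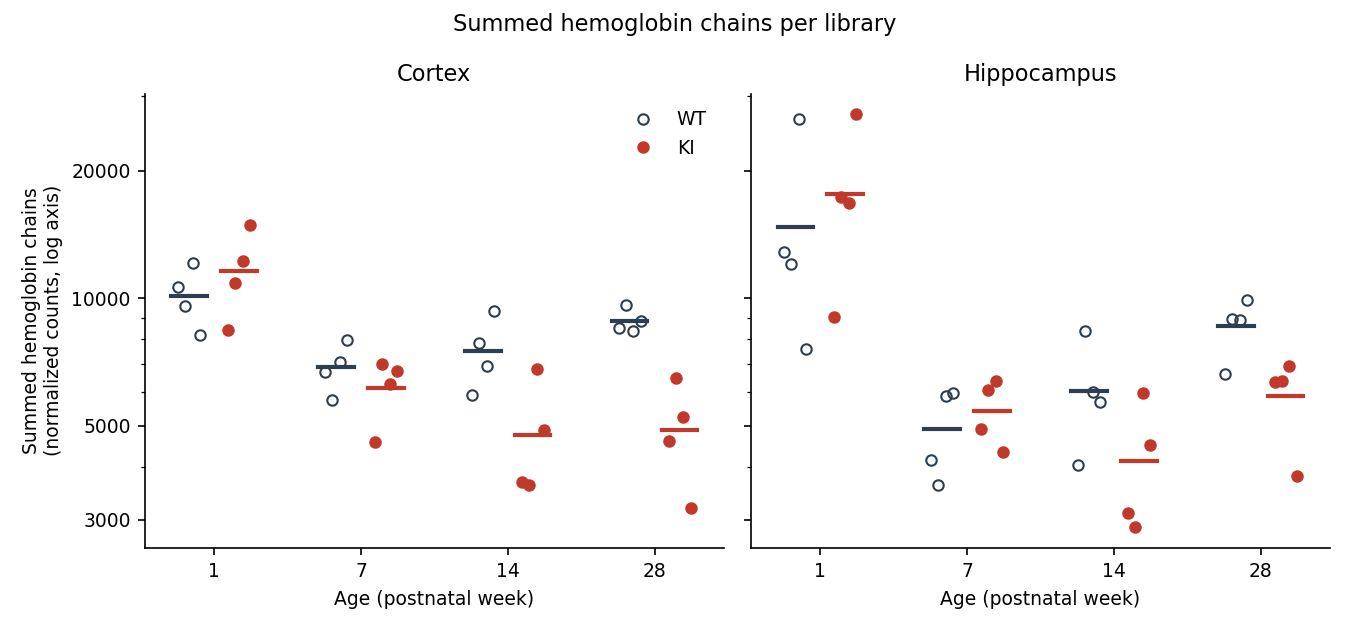
Summed hemoglobin chains (normalized counts, log axis) in each of the 64 libraries by age, with WT open and KI filled and a bar at each group mean (n = 4), for cortex and hippocampus. WT falls after PWK 1 and is higher at PWK 28 than at PWK 7, and in the PWK 28 cortex the 4 KI libraries lie between 3194 and 6477, below the 4 WT libraries.

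The other genes of the heme and red cell lists were tested over the same steps, and here limma's adjusted p-values over all genes apply. From PWK 1 to PWK 7, when 65.5% of all genes were called in the cortex and 62.2% in the hippocampus, the other genes of heme synthesis went both ways. In the cortex 7 of 12 rose and 4 fell, and in the hippocampus 5 rose and 4 fell. Cpox, coproporphyrinogen oxidase, rose by 0.80 (SE 0.06, adjusted p = 5.28e-10) in the cortex and by 0.94 (SE 0.05, adjusted p = 1.97e-11) in the hippocampus. Ppox and Urod, other enzymes of the pathway, rose in both regions (0.61 to 0.84).

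Genes of the red cell list, which need not report red cells as said above, split. In the cortex 6 of 13 rose and 3 fell, and in the hippocampus 6 rose and 4 fell. Slc4a1, the red cell anion exchanger, fell in the hippocampus by 2.63 on the log2 scale (SE 0.66, adjusted p = 0.00225), from a mean of 31.7 to 7.14 normalized counts. These counts are low and the groups overlapped, with 18.6 to 59.6 at PWK 1 and 0 to 19.4 at PWK 7. In the cortex its mean did not fall (20.1 at PWK 1, 23.6 at PWK 7). Epor, the erythropoietin receptor, rose in both regions (2.74 and 1.82). The theta globin genes are minor members of the alpha cluster. Hbq1b fell from 21.2 to 1.87 in the cortex (adjusted p = 0.000411) and from 28.9 to 10.4 in the hippocampus (adjusted p = 0.000306), and Hbq1a fell in the hippocampus (13.0 to 6.64, adjusted p = 0.0145).

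Iron genes also went both ways. Trf, the iron carrier transferrin, which oligodendrocytes also make, rose from 397 to 5723 in the cortex (adjusted p = 3.99e-13) and from 480 to 7954 in the hippocampus (adjusted p = 3.18e-14). Ftl1, the ferritin light chain, fell by 1.26 and 1.27. Of the 17 genes of this list, 7 rose and 5 fell in the cortex, and 6 rose and 6 fell in the hippocampus. Among vessel genes, 6 of 12 fell in the cortex and 7 of 12 in the hippocampus, against 4 and 3 that rose. Of 8 meninges genes, 4 fell in the cortex and 5 in the hippocampus. Of 8 leukocyte and platelet genes, 3 rose and 1 fell in the cortex, and 1 rose and 1 fell in the hippocampus. Of 7 choroid plexus genes, 1 rose in each region. The part of any of these in the hemoglobin difference was not tested.

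From PWK 7 to PWK 28, with 20.5% of genes called in the cortex and 17.5% in the hippocampus, vessel genes fell, 9 of 12 in the cortex and 6 of 12 in the hippocampus, with 0 higher in either. Cldn5, a tight junction protein of the vessel wall, fell in both (0.62 with an adjusted p of 6.5e-06, and 0.37 with an adjusted p of 0.00523). Tfrc, the transferrin receptor, fell by 0.50 and 0.54 (adjusted p = 1.9e-05 and 2.39e-05). Heme synthesis had 0 higher and 2 lower in the cortex and 1 higher and 1 lower in the hippocampus. Ngb, the neuronal neuroglobin, rose in the hippocampus from 46.2 to 84.0 (adjusted p = 0.027).

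Between the regions, the WT hemoglobin difference changed sign with age. At PWK 1 the hippocampus was higher by 0.41 (SE 0.39), at PWK 7 lower by 0.51 (SE 0.21), and at PWK 14 and PWK 28 the log2 differences were -0.34 (SE 0.26) and -0.06 (SE 0.13). The groups overlapped at all 4 ages. These SEs treat the regions as separate samples, although libraries with the same number moved together. Within numbers, the hippocampus was higher in 3 of 4 WT pairs at PWK 1, lower in 4 of 4 at PWK 7, lower in 3 of 4 at PWK 14, and lower in 2 of 4 at PWK 28. Members past the threshold numbered 0 of 5 at PWK 1 (background 16.1% higher), 3 of 5 at PWK 7 (20.4% lower), 0 at PWK 14 (17.6% lower) and 0 at PWK 28 (19% lower). The 3 were Hbb-bs, Hbb-bt and Hba-a2, of which Hbb-bs had groups apart (19.8% lower). Nothing is read from these counts.

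Choroid plexus genes separated the regions. They were higher in the hippocampus in 7 of 7 cases at PWK 1, 7 and 28 and in 6 of 7 at PWK 14, with 34.7%, 40.8%, 37.8% and 34.6% of all genes called in either direction at those ages. The summed level of the list at PWK 14 ran from 1953 to 106807 in the 8 hippocampus libraries. Summed hemoglobin in these libraries ran from 2881 to 8365. The part of choroid plexus in the hemoglobin values was not tested. Cygb, cytoglobin, was higher in the hippocampus at all 4 ages (0.22 to 0.81), and Ngb was lower at PWK 1 and PWK 7 (-1.04 and -0.81). Slc25a37, the mitochondrial iron importer, was lower at all 4 ages (-0.62 to -0.74).

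Ordered by median, summed hemoglobin was highest in the PWK 1 hippocampus of KI mice (17048) and then of WT mice (12492), followed by the PWK 1 cortex (11550 KI, 10109 WT). The PWK 28 WT groups came next (8895 hippocampus, 8671 cortex), then WT cortex at PWK 14 (7390) and PWK 7 (6889). Lowest were the PWK 28 KI cortex (4925), the PWK 14 KI cortex (4282) and the PWK 14 KI hippocampus (3809). The ranges of all 15 pairs of neighbours in this order overlapped.

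Between KI and WT, the groups overlapped for every member at the early ages. In the cortex at PWK 1 summed hemoglobin was 11615 ± 2707 in KI and 10125 ± 1660 in WT (SD, n = 4), a log2 difference of 0.18 (SE 0.21). In the hippocampus it was 17599 ± 7457 and 14767 ± 8166, a log2 difference of 0.30 (SE 0.50). At PWK 7 the differences were -0.17 (SE 0.17) in the cortex and 0.16 (SE 0.22) in the hippocampus. In each case 0 of 5 genes were called, where the background was 0.00546% higher and 0.00545% lower for the cortex at PWK 1 and PWK 7, and 0.0109% and 0.00544% higher for the hippocampus. An SE of this size leaves room for a moderate difference in either direction.

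At PWK 14 the KI means were lower in both regions, within overlapping groups. KI cortex held 3679, 3621, 6812 and 4886, and WT cortex 5923, 7851, 6929 and 9346. Of the 4 KI libraries, 3 lay below all WT libraries and replicate 3 lay among them. The log2 difference was -0.69 (SE 0.26), and single genes ran from -0.65 (Hbb-bs, SE 0.18) to -0.74 (Hba-a1, SE 0.22), with Alas2 at -0.70 (SE 0.29). No member passed the threshold, where 2.7% of genes did in the lower direction.

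The PWK 14 hippocampus had the same form. KI held 3110, 2881, 5980 and 4507 and WT 4041, 8365, 6005 and 5704, so KI replicates 1 and 2 were below all WT libraries. The log2 difference was -0.57 (SE 0.33). The members ran from -0.47 (Alas2, SE 0.33) to -0.60 (Hba-a2, SE 0.27), and 0 of 5 passed (background 7.95% lower). KI replicate 3 was the highest of its group and replicate 2 the lowest in both regions.

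The PWK 28 cortex had the widest gap. KI libraries held 4598, 6477, 5252 and 3194, and WT libraries 8508, 9649, 8379 and 8833, with no overlap. The means were 4880 ± 1367 in KI and 8842 ± 571 in WT (SD, n = 4). The difference of the mean log2 values was -0.90 (SE 0.22), a ratio of geometric means of 0.536. The WT libraries were close to each other and the KI libraries spread over a wider range. All 5 genes passed the threshold in the lower direction (background 10%) and 4 had groups apart (background 11.8%); nothing is read from these counts.

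By role, the chain genes of both clusters were lower to a like degree there. Hba-a2 held 1342, 1885, 1509 and 945 in KI and 2626, 3002, 2557 and 2754 in WT, a log2 difference of -0.99 (SE 0.17). Hba-a1 differed by -0.91 (SE 0.16), from 1512 to 1870 in WT and 613 to 1171 in KI. Hbb-bs held 2103, 2887, 2416 and 1402 in KI and 3760, 4092, 3741 and 3852 in WT (-0.86, SE 0.17). Every KI library of these 3 genes lay below every WT library.

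Hbb-bt, the less abundant beta chain, differed by -0.80 (SE 0.21), with 235 to 533 normalized counts in KI and 548 to 685 in WT. Alas2 held 82.4, 132, 87.9 and 60.8 in KI and 154, 136, 135 and 130 in WT (-0.66, SE 0.21). KI replicate 2 alone reached the WT range of Alas2, and it was also the highest KI library of all 4 chains.

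In the PWK 28 hippocampus the members were lower by less. KI held 6351, 6380, 6936 and 3801, and WT 6614, 8921, 8868 and 9936. The difference of the mean log2 values was -0.57 (SE 0.24), a ratio of geometric means of 0.673, and KI replicate 3 lay above WT replicate 1. Hba-a2 (-0.62, SE 0.16) and Hba-a1 (-0.65, SE 0.17) passed the threshold (background 6.91% lower), and Hba-a2 was apart (background 9.77%). Again, nothing is read from these counts. Hbb-bt differed by -0.64 (SE 0.20), Alas2 by -0.57 (SE 0.25) and Hbb-bs by -0.48 (SE 0.19).

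**Figure D5:**
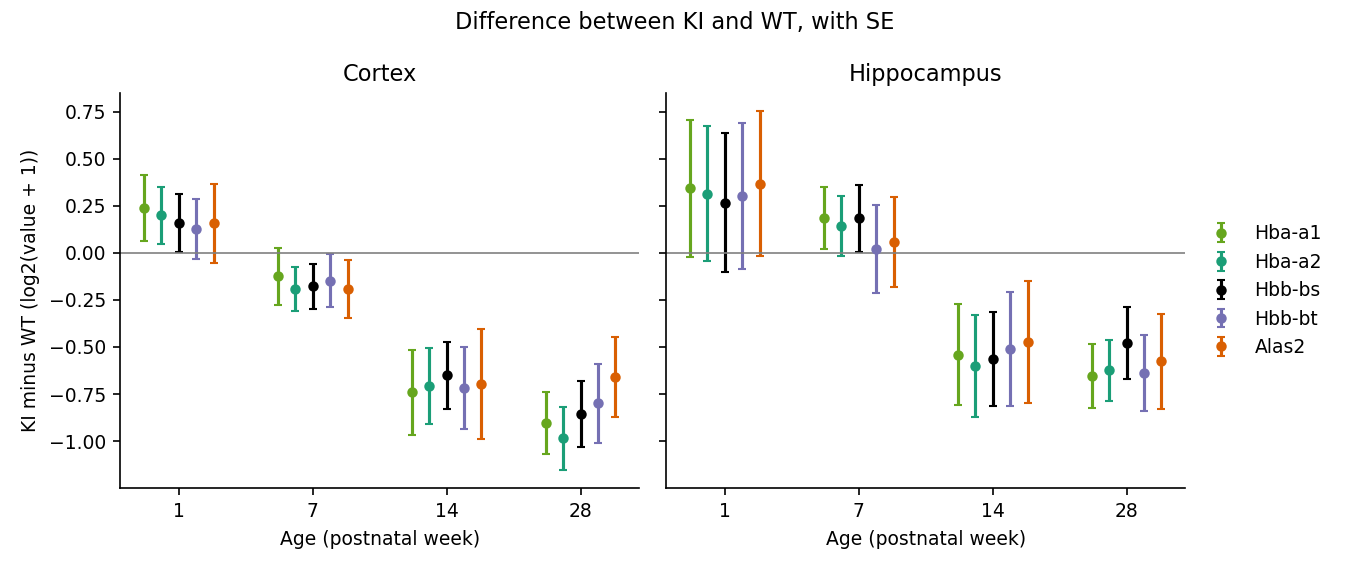
KI minus WT difference on the log2(value + 1) scale with its SE (error bars, 4 libraries per group) for each of the 5 genes at 4 ages in cortex and hippocampus. The points lie between -0.19 and 0.37 at PWK 1 and 7, highest in the PWK 1 hippocampus (0.27 to 0.37), and between -0.47 and -0.99 at PWK 14 and 28.

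The KI cortex had a mean of 6152 ± 1088 at PWK 7, 4749 ± 1494 at PWK 14 and 4880 ± 1367 at PWK 28 (SD, n = 4), while WT went from 6873 to 7512 to 8842. In the hippocampus KI went from 5427 to 4120 to 5867 and WT from 4906 to 6029 to 8585. Whether the genotype difference itself changed with age was not tested.

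The lists around the members were tested between KI and WT. None of the 81 listed genes read was called at PWK 1 or PWK 7 in either region by limma, where 0.00546%, 0.00545%, 0.0109% and 0.0218% of all genes were called (965 to 1477 genes had an unadjusted p under 0.05). At PWK 14, 8 listed genes were called in the cortex (background 5.18%) and 15 in the hippocampus (15.6%). At PWK 28 it was 20 in the cortex (22.2%) and 15 in the hippocampus (15.8%). At PWK 28, and at PWK 14 in the hippocampus, these shares of the 81 genes lie near the background.

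Hmox1, heme oxygenase 1, which breaks down heme and is induced by heme and by oxidative stress, rose in KI in all 4 late comparisons (PWK 14 and PWK 28 in both regions). In the hippocampus at PWK 14 it held 419, 235, 252 and 259 in KI and 110, 120, 114 and 102 in WT (log2 difference 1.34, SE 0.18, adjusted p = 0.0024). At PWK 28 it held 186 to 210 in KI and 122 to 145 in WT (0.57, SE 0.11, adjusted p = 0.00486). In the cortex the differences were 0.88 (SE 0.17, adjusted p = 0.0166) and 0.65 (SE 0.17, adjusted p = 0.0232). KI and WT did not overlap in any of the 4. The cortex calls were lost in 1 of 8 fits at PWK 14 and 3 of 8 at PWK 28 that left out 1 library (highest adjusted p 0.0536 and 0.0638).

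Hp, haptoglobin, which binds free hemoglobin, rose in the PWK 28 hippocampus (21.4, 17.1, 23.4 and 27.5 in KI against 3.43, 3.13, 6.92 and 5.83 in WT, adjusted p = 0.00207), at low counts. Cd163, the receptor for that complex, rose at PWK 14 in the hippocampus (0.91, SE 0.22, adjusted p = 0.0228), a call lost in 2 of 8 fits without 1 library. Of the 17 iron and heme breakdown genes, 1 rose and 0 fell in the PWK 14 cortex, 2 rose and 2 fell in the PWK 28 cortex, and 2 and 4 rose with 0 lower in the hippocampus at PWK 14 and PWK 28.

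Neuroglobin was lower in the late KI groups. Ngb fell in the PWK 28 cortex (26.6, 41.9, 18.1 and 25.6 in KI against 111, 92.3, 122 and 71.3 in WT, log2 difference -1.82, SE 0.27, adjusted p = 0.00144). It also fell in the hippocampus at PWK 14 (-1.68, SE 0.35, adjusted p = 0.0128) and PWK 28 (-1.54, SE 0.24, adjusted p = 0.00167). In the PWK 14 cortex Ngb held 14.9, 28.6, 67.9 and 85.3 in KI and 81.4 to 126 in WT and was not called.

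Cygb, cytoglobin, fell in the hippocampus at PWK 14 (-0.89, SE 0.09, adjusted p = 0.000875) and PWK 28 (-0.56, SE 0.08, adjusted p = 0.00108), with no overlap of KI and WT. Other globins called were thus 0 of 4 in the PWK 14 cortex, 1 of 4 in the PWK 28 cortex and 2 of 4 at each of these ages in the hippocampus, all lower. The other 6 of this list of 10, the embryonic chains among them, were not found among the genes with values.

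The other genes of heme synthesis gave calls in 3 of the 4 late comparisons. In the PWK 28 cortex 4 of 12 genes rose and 0 fell (Abcb10, Slc25a39, Tmem14c and Fech), the first being a mitochondrial transporter needed for heme synthesis (Abcb10: 0.58, SE 0.10, adjusted p = 0.0023). In the hippocampus 1 rose and 1 fell at PWK 14, and 2 rose and 1 fell at PWK 28, and at PWK 14 in the cortex 0 of 12 were called. In fits that left out 1 library, the PWK 28 cortex calls of Abcb10 and Slc25a39 held in all 8, whereas those of Fech and Tmem14c were each lost in 6 of 8 (highest adjusted p 0.122 and 0.075). The hippocampus call of Abcb10 was lost in 5 of 8 at PWK 14 and 7 of 8 at PWK 28. The list's median difference was 0.03 to 0.06 in these 4 comparisons. Alas1 was not called in any of the 8 (log2 differences of -0.13 to 0.18, adjusted p = 0.0648 to 0.978).

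The 13 red cell genes read gave 0 called in the PWK 14 cortex, 1 higher and 2 lower in the PWK 28 cortex, 4 lower in the PWK 14 hippocampus, and 1 higher and 2 lower in the PWK 28 hippocampus. The called genes were Mkrn1, Ube2l6, Tmcc2, Tspan33, Sptb and Ermap. Mkrn1, Tmcc2 and Sptb are among the abundant genes named above, so these calls need not report red cells. Slc4a1 was not called in any of the 8 comparisons, and Ahsp, Klf1 and Gata1 had no values to read.

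Vessel genes fell in the PWK 14 cortex, 3 of 12 with 0 higher. They were Flt1, a VEGF receptor of endothelium (-0.51, SE 0.06, adjusted p = 0.00239), Cldn5 (-0.64, SE 0.11, adjusted p = 0.00867) and Slco1a4, whose call was lost in 7 of 8 fits without 1 library. Their list summed to 8536 to 9597 in KI and 10756 to 11816 in WT, without overlap. At PWK 28 in the cortex the list summed to 8251 to 12718 in KI and 8081 to 10112 in WT. There 1 gene was higher and 1 lower. In the hippocampus 1 was higher and 1 lower at PWK 14 (Vtn of pericytes: -0.47, SE 0.09, adjusted p = 0.0112), and 2 were higher at PWK 28, Slco1a4 among them (0.53, SE 0.08, adjusted p = 0.00194).

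Leukocyte and platelet genes summed to 53.4 to 117 in KI and 116 to 145 in WT in the PWK 28 cortex, 1 of 8 called lower. In the other 3 late comparisons 0 of 8 were called. The sums overlapped in all 4, in the PWK 28 cortex only narrowly. Choroid plexus genes had 0 of 7 called in all 4, with 1 WT library of the PWK 28 cortex at 21751 against 349 to 1069 in KI. With 1 library left out at a time, the summed hemoglobin difference there ran from -1.05 to -0.71. The part of choroid plexus in that difference was not tested.

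Genes of the meninges moved in both directions. Dcn, the matrix protein decorin, rose in the PWK 14 cortex (0.88, SE 0.15, adjusted p = 0.00831), and Lum, lumican, in the PWK 28 cortex (1.21, SE 0.16, adjusted p = 0.000713). Igf2, a growth factor made in meninges and choroid plexus, fell in the PWK 28 cortex from 2012 to 581 (-1.79, SE 0.16, adjusted p = 0.000138). Counts were 3 higher and 1 lower in the PWK 14 cortex, 3 higher and 2 lower in the PWK 28 cortex, 2 higher and 1 lower in the PWK 14 hippocampus, and 1 higher in the PWK 28 hippocampus. The part of vessels, leukocytes, choroid plexus or meninges in the hemoglobin differences was not tested.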

How the data were processed

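The authors quantified transcripts with Salmon 0.11.2 on GRCm38 and normalized with DESeq2 1.19.11 in R 3.6.0 (versions per the submitters' processing notes; the study's methods name other versions). The labels name a stranded mRNA kit and the methods a total RNA kit, which could change how much globin RNA was read. The sources used here mention no globin removal for these libraries. The authors deposited a signal of DESeq2-normalized counts per gene. Reads could not be recovered. At the read size that fitted each library best, 27.0% to 56.5% of low values lay within 0.1 of a whole read. Chance gives 20% at a single fixed size and more at the best of many. So log2(value + 1) was fitted by limma 3.58.1 (R 4.3.3, limma-trend) over genes with a mean of at least 1 in the fitted libraries. Calls are at a Benjamini-Hochberg adjusted p under 0.05 over all genes. Genotype and WT region fits used 8 libraries, and WT age fits the 16 WT libraries of a region. The fit was tested on simulated data. Members got no p. Members counted as past the threshold are given only beside the background share, and nothing is read from them. Members and lists were chosen with earlier results of these data known. The SE of summed hemoglobin is that of 2 group means of log2 values. Of 109 listed genes, 81 were read. Named genes were all members, up to 4 called listed genes by smallest p per genotype comparison and up to 3 per list by largest change elsewhere, and the 10 non-members most like summed hemoglobin; Hmox1, Cd163, Cygb, Ngb, Alas1 and other listed genes beyond this were chosen after their values were seen. Of the table's identifiers, 18420 of 18432 matched GENCODE vM21 symbols.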

Additional observations from a re-analysis of the deposited data

Results flagged for a closer look

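Of 80 sets of 4 libraries checked (5 genes in 16 groups), 1 had a library far from the rest by Dixon's ratio, where chance flags about 1 in 20. Hbb-bs in the PWK 28 KI hippocampus was lowest in replicate 4 (1572.89 normalized counts), with 2783, 2728 and 2939 in the other 3 libraries, a ratio of 0.845. The same library was lowest in the other 4 members, and the library numbered 4 was also lowest in the PWK 28 KI cortex.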

How the results depend on the processing

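Of 528 values under alternatives, 514 stayed within the set limits and 14 counts of listed genes moved by over 1.5 times. None of the 320 values of summed hemoglobin or Alas2 moved by the pooled within-group SD or more. In fits without 1 library this could not happen, since dropping 1 of 4 libraries always shifts a difference by less than that SD. Those values, counted among the 514, therefore say nothing of stability. The sign changed in 5 of 32 differences, none over 0.27 in size. With all 64 libraries in one fit, listed genes called were 26 (15) in the PWK 14 hippocampus and 12 (20) for WT hippocampus from PWK 7 to 28, and the cause was not tested. With the replicate block the PWK 14 hippocampus count was 6 (15). The numbers did not meet the rule for pairing, every pair over 0.1, across all genes: same-number deviations correlated on average at 0.026 between genotypes (-0.009 for other numbers; 10 of 32 pairs over 0.1) and at 0.140 between regions (-0.046; 17 of 32, with 2 of 8 sets wholly over 0.1). Between regions, summed hemoglobin itself did move with the number. Leaving out 1 library gave 0 to 1 calls in the PWK 7 cortex (1 without WT replicate 2), 3 to 11 in the PWK 14 cortex (lowest without WT replicate 1), 9 to 24 in the PWK 28 cortex (lowest without WT replicate 4) and 5 to 17 in the PWK 14 hippocampus (lowest without WT replicate 2). With 1 library left out, the KI minus WT difference of summed hemoglobin ran from -1.05 to -0.71 in the PWK 28 cortex. It ran from -0.88 to -0.58 in the PWK 14 cortex. In the hippocampus it ran from -0.77 to -0.39 at PWK 14 and from -0.69 to -0.37 at PWK 28. These ranges only describe the values and, as said above, say nothing of stability. Depth is unknown, so counting error of the low genes cannot be given.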
